A study of Mus musculus with 6 samples.

Results

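Gasdermins and caspases were followed in mouse submandibular salivary gland organoids (mSGOs) between 5 and 7 days of culture. The genes were 5 gasdermins (Gsdma, Gsdmc, Gsdmc2, Gsdmd and Gsdme) and 4 caspases (Casp1, Casp4, Casp8 and Casp14), chosen by name and found by matching the Ensembl identifiers of the count files to the GENCODE mouse annotation. All 9 were among the 47643 identifiers in the files. Gsdmc2 had no read in any library, and the other 8 were among the 15792 genes tested.

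The organoids were grown from submandibular glands of C57BL/6 mice aged 8 to 12 weeks. The mice were female, from the methods of the study. Digested gland cells formed spheres, which were dissociated and embedded in Matrigel in WRY medium. Besides Wnt3a- and R-spondin1-conditioned medium this medium held FGF2, EGF, N2, insulin, dexamethasone and Y27632, a ROCK inhibitor, and every library shared it. All organoids were untreated and non-irradiated, and organoids of mouse 1, mouse 2 and mouse 3 were each collected at day 5 and at day 7, giving 3 libraries a day and 6 in all. Organoid RNA was extracted in bulk, so that fewer cells of a kind and less RNA per cell cannot be told apart.

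Gasdermins are pore-forming proteins. In an intact cell the carboxy-terminal domain holds the amino-terminal domain inactive, and a cut in the linker between them frees the amino-terminal part to open the plasma membrane, the lytic death called pyroptosis. Caspases are the cysteine proteases that make most of these cuts and that also run apoptosis. Epithelia use them for more than death: caspase-14 processes filaggrin in cornifying keratinocytes, and caspase-8 restrains necroptosis.

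The bases that encode the parts of these proteins named above were read from the reference genome (GRCm39, with the GENCODE vM39 gene models). They mark the active site or the cut site of the genes shown and are not results of these libraries. In the 4 caspases the capitals mark the codon of the active-site cysteine, the residue that attacks the substrate, at codon 284 of Casp1, 254 of Casp4, 362 of Casp8 and 136 of Casp14. In Gsdmd and Gsdme the capitals mark the codon of the aspartate after which caspases cut, at codon 276 of Gsdmd and 270 of Gsdme. The windows of Casp8 and Gsdme lie in 1 exon each, and the others cross an exon junction, so that their span in the genome is longer than the 27 bases shown.
Casp1, chr9:5303753-5304191, plus strand: attattcaggcaTGCcgtggagagaaa
Casp4, chr9:5324937-5327180, plus strand: attgtgcaggccTGCagaggtgggaac
Casp8, chr1:58883766-58883792, plus strand: ttcattcaggctTGCcaaggaagtaac
Casp14, chr10:78550227-78550790, minus strand: atcatccaggctTGTagaggagagcac
Gsdmd, chr15:75738013-75738158, plus strand: agtctcctgtcaGATgggattgatgag
Gsdme, chr6:50199756-50199782, minus strand: ctggacatgctgGATgggggtcaaggg

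Libraries were made with QuantSeq, which reads the 3′ end of polyadenylated RNA, from 100 ng of RNA of integrity number above 9. The files held 1918198 to 2837397 counts in genes per library, and the totals did not separate the days (exact permutation test, two-sided, p = 0.5, smallest possible p 0.1). Reads assigned to no gene made up 13.7 to 14.4% of the reads at day 5 and 9.12 to 9.74% at day 7, and their part in the results was not tested. Levels are given as counts per 1000000 counts in genes (CPM) after TMM scaling, a correction for the makeup of each library. 3 counts in a single library, the most that a count of 0 allows, were worth 1.04 to 1.51 CPM. The reads carry no molecular identifiers, so these floors cover counting error only. The 10 epithelial markers summed to 15210 to 19165 CPM at day 5 and 12485 to 16808 CPM at day 7 (exact p = 0.4), and all 10 were detected. Most of this sum was Krt5 and Krt14, so it says little of the other markers. In edgeR Cldn4 passed upward (log2 fold change 1.89, adjusted p = 0.000149) and Krt8 downward (-0.65, adjusted p = 0.0374). The other epithelial markers did not pass. Most acinar markers were low, with 3 of 9 at 0 and sums of 7.03 to 12.6 CPM at day 5 and 11.9 to 35.7 CPM at day 7 (exact p = 0.2). Among them Pip passed upward in the edgeR test described below (log2 fold change 3.73, adjusted p = 0.0143). It had 3 counts at day 5 and 46 at day 7, of which mouse 1 had 1. Aqp5 (0.93, adjusted p = 0.123) and Amy1 (-1.32, adjusted p = 0.288) did not pass in edgeR.

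Gsdmc was the member that changed. It was higher at day 7 in CPM in all 3 mice, though mouse 3 had 11 counts at day 5 and 10 at day 7. The fitted increase was about 6.95-fold. Gsdma was also higher at day 7 in CPM in all 3 mice, though mouse 3 had 3 counts on both days. It did not pass the test. Gsdmd, Gsdme, Casp1, Casp4, Casp8 and Casp14 did not pass the test and their days overlapped. A gene passed with an adjusted p under 0.05 (Benjamini-Hochberg over all genes tested) and an absolute log2 fold change over 0.6 in the quasi-likelihood test of edgeR. Of the 8 members tested, 1 passed in the upward direction and 0 in the downward direction, where 12.0% of all genes tested passed, 7.22% upward and 4.82% downward. Upward changes made up 60.0% of the genes that passed, and 48.5% where libraries were scaled by their totals alone. The median log2 fold change was -0.029 over the 8 members and -0.0073 over all genes tested. The days did not overlap in 2 of 8 members, against 30.9% of all genes tested. At an unadjusted p under 0.05 there were 2 of 8 members and 4079 of 15792 genes.

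**Figure D1:**
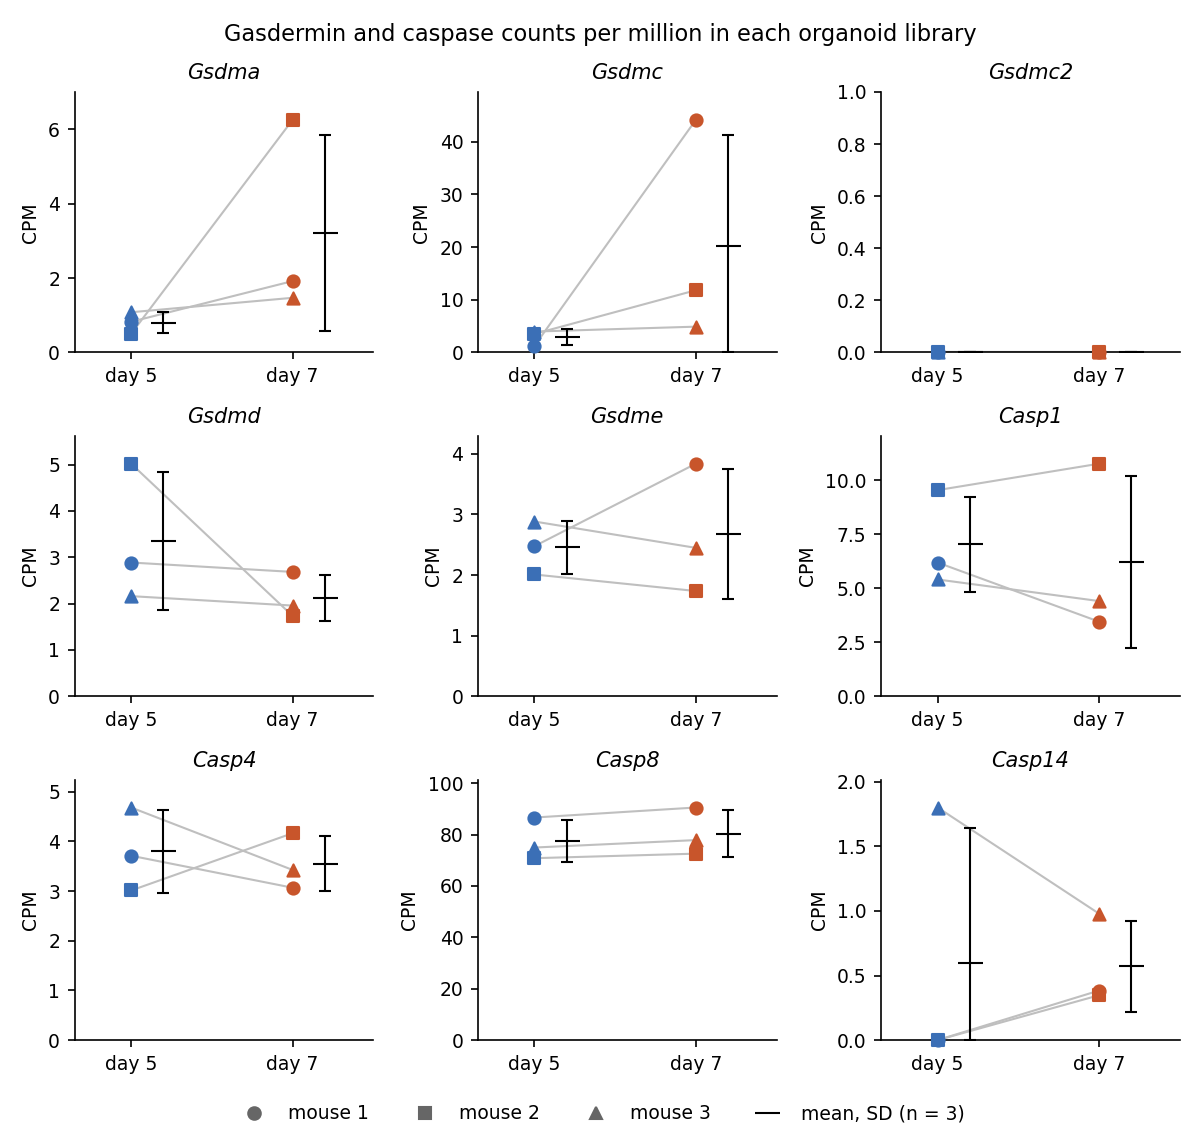
CPM (vertical axes, from 0, on a separate scale for each gene) of the 9 genes at day 5 (blue) and day 7 (orange), with a symbol for each mouse, grey lines between the libraries of a mouse, and the mean with its SD (n = 3), drawn no lower than 0. The highest Gsdmc value is mouse 1 at day 7 with 44.1 CPM, the Casp8 values lie between 70.8 and 90.5 CPM on both days, and Gsdmc2 is at 0 throughout.

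Gsdmc lies on the minus strand (chr15:63647817-63680608 in GRCm39). Its counts at day 5 were 3 in mouse 1, 7 in mouse 2 and 11 in mouse 3, or 1.24, 3.51 and 3.96 CPM. At day 7 the counts were 115 in mouse 1, 34 in mouse 2 and 10 in mouse 3, or 44.1, 11.8 and 4.90 CPM. The days did not overlap, and the rise was very uneven between the mice: mouse 1, the lowest at day 5, was the highest at day 7, and the 11 and 10 counts of mouse 3 differed by less than counting error. Within a mouse the ratio of day 7 to day 5 was 35.6 for mouse 1, 3.36 for mouse 2 and 1.24 for mouse 3. The mean was 2.91 ± 1.46 CPM at day 5 and 20.3 ± 20.9 CPM at day 7 (SD, n = 3). In edgeR the log2 fold change was 2.80 ± 0.63 (SE; 95% confidence interval 1.48 to 4.11; adjusted p = 0.00621).

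The size of the Gsdmc change rested on mouse 1. That mouse held 72.3% of the Gsdmc counts of day 7, and without its day 7 library the log2 fold change was 1.55 with an adjusted p of 0.0394 in edgeR. The call was lost without the day 5 library of mouse 1 (2.44, adjusted p = 0.0589 in edgeR), with limma voom (2.37, adjusted p = 0.0811) and with robust dispersion estimates in edgeR (2.80, adjusted p = 0.151). It was kept in 14 of 17 alternative settings, among them the paired fit, with a term for each mouse (2.42), and the log2 fold change was positive in all 17.

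Gsdmc has close copies. Its coding sequence matched that of Gsdmc2 at 87.0% of aligned bases, that of Gsdmc3 at 87.2% and that of Gsdmc4 at 88.1%, and the 4 genes lie side by side, with Gsdmc2 15587 bases from Gsdmc. To show how alike the copies are, the ends of the 4 coding sequences are given, from the same 9 bases, in capitals, to the stop codon. These stretches lie upstream of the last 500 bases of each transcript, where the 3′ reads are taken to lie. Gsdmc ended 21 bases after the start of this run, and each of the others after 60.
Gsdmc, chr15:63648526-63648546, minus strand: CAGCAACTTtcagaagcctaa
Gsdmc2, chr15:63696727-63696786, minus strand: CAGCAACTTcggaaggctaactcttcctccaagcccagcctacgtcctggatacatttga
Gsdmc3, chr15:63730120-63730179, minus strand: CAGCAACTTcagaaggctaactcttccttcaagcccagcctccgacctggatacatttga
Gsdmc4, chr15:63763653-63763712, minus strand: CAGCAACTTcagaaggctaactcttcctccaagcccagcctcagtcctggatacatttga
In those last 500 bases, 29.3% of the 50-base words of Gsdmc occurred in at least 1 of its 3 copies, with a shared run of up to 124 bases (Gsdmc2). For Gsdmc2 the share was 55.7%, for Gsdmc3 38.8% and for Gsdmc4 7.98%. In the deposited counts, the entry for reads without a unique alignment was 0 in every library. Whether such reads were removed before counting or assigned to a gene is not given in the sources used here. The split of counts between the copies is therefore uncertain. The counts of Gsdmc2, Gsdmc3 and Gsdmc4 were 0 in every library.

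Gsdma, a gasdermin of skin and upper digestive epithelium, lies on the plus strand (chr11:98555177-98568534). Its counts were 2, 1 and 3 in mice 1 to 3 at day 5, or 0.825, 0.502 and 1.08 CPM. At day 7 they were 5, 18 and 3, or 1.92, 6.25 and 1.47 CPM. All 3 libraries of day 7 lay above all 3 of day 5 in CPM, with mouse 2 far above the other mice. Mouse 3 had 3 counts on both days, so its CPM differed by library size only. The log2 fold change was 1.95 ± 0.72 (SE; 95% confidence interval 0.43 to 3.47) and the adjusted p in edgeR was 0.0885, above the threshold. Without the day 7 library of mouse 2 it was 1.00 (adjusted p = 0.487 in edgeR). It passed the threshold without the day 7 library of mouse 1 (2.24, adjusted p = 0.0397) or of mouse 3 (2.25, adjusted p = 0.0324) and with no filter on low counts (1.95, adjusted p = 0.0451), all in edgeR. With 32 counts in all, the gene sat near the floor at day 5. None of the 50-base words in its last 500 bases occurred in another gene, and its copies Gsdma2 and Gsdma3 were at 0.

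**Figure D2:**
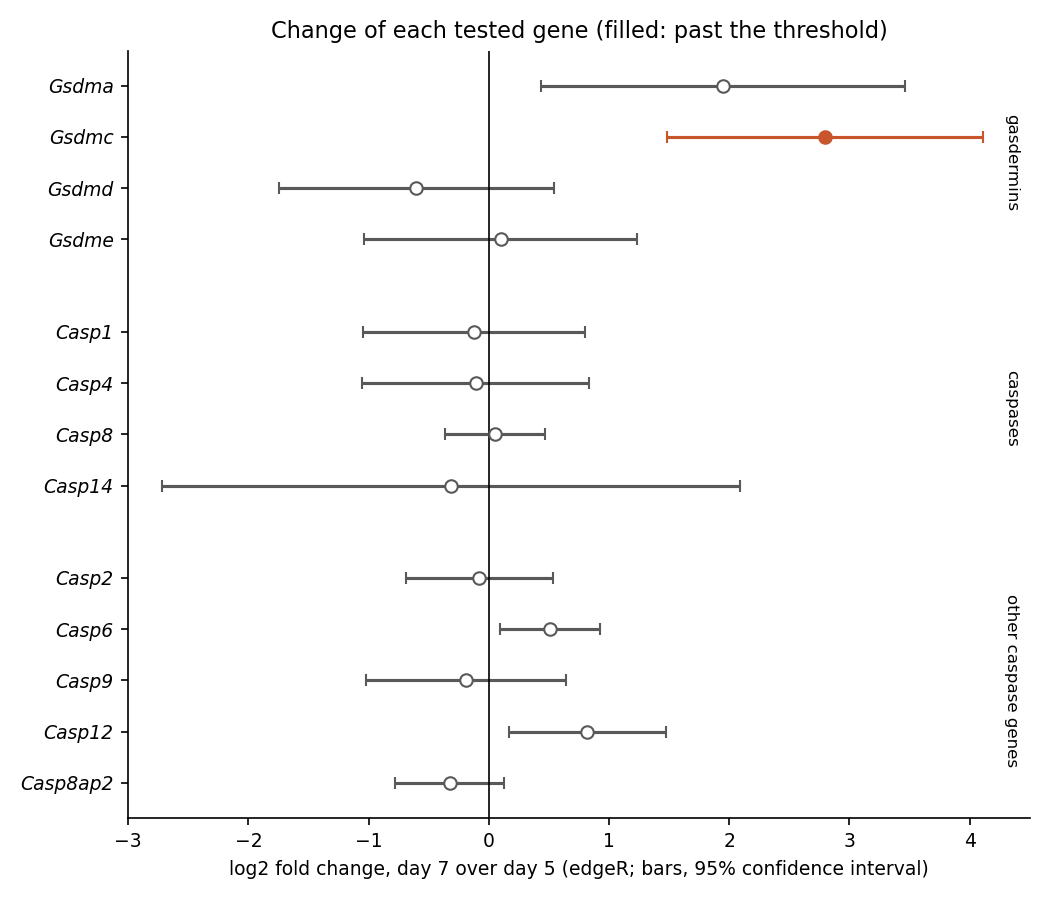
Fitted log2 fold change of day 7 over day 5 (horizontal axis) with its 95% confidence interval (bars) for the 4 gasdermins and 4 caspases tested and for 5 other genes of the caspase list, filled where past the threshold. Gsdmc (2.80) is the filled point, the interval of Gsdma (0.43 to 3.47) lies above 0 without passing the adjusted threshold, and the Casp8 interval (-0.36 to 0.46) is the narrowest of the 8 members.

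Gsdmd and Gsdme, the gasdermins with the caspase cut sites shown above, stayed low on both days. Gsdmd, cut by caspase-1 and by the product of mouse Casp4, had 7, 10 and 6 counts at day 5 (2.89, 5.02 and 2.16 CPM) and 7, 5 and 4 at day 7 (2.69, 1.74 and 1.96 CPM). Its day 7 CPM was below its day 5 CPM in all 3 mice, though mouse 1 had 7 counts on both days. The days overlapped and the log2 fold change of -0.60 ± 0.54 did not pass (95% confidence interval -1.75 to 0.54, adjusted p = 0.518 in edgeR). Gsdme, which a caspase cut also opens, had 6, 4 and 8 counts at day 5 (2.48, 2.01 and 2.88 CPM). At day 7 it had 10, 5 and 5 (3.84, 1.74 and 2.45 CPM). Its values overlapped, being higher at day 7 in mouse 1 only, and the log2 fold change was 0.097 ± 0.54 (95% confidence interval -1.04 to 1.23; adjusted p = 0.956 in edgeR). With 39 counts of Gsdmd and 38 of Gsdme in all, these intervals do not exclude a fall of 1 on the log2 scale. Each has an exon that overlaps a gene on the other strand, Gm62577 for Gsdmd and Pals2 for Gsdme, and whether counting used the strand is not stated. Gsdmc2 (chr15:63696195-63717026) had 0 counts over the 6 libraries, which allows up to 0.204 CPM of reads assigned to it. Since 55.7% of the words at its end occur in its copies and the counting of shared reads is not stated, this does not bound the transcript itself.

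Casp1 and Casp4 are the inflammatory caspases, which lie 1538 bases apart on the plus strand (Casp1 chr9:5298508-5307290, Casp4 chr9:5308828-5336783). Caspase-1 is switched on by inflammasomes and matures interleukin-1 beta and interleukin-18, whereas the product of Casp4, known as caspase-11, binds lipopolysaccharide. Casp1 had 15, 19 and 15 counts at day 5 (6.19, 9.54 and 5.40 CPM) and 9, 31 and 9 at day 7 (3.45, 10.8 and 4.41 CPM). Mouse 2 held the highest Casp1 value on both days, and it alone was higher at day 7. The log2 fold change was -0.12 ± 0.44 (95% confidence interval -1.04 to 0.80; adjusted p = 0.902 in edgeR). An exon of Casp1 overlaps Gm67740 on the other strand. Casp4 had 9, 6 and 13 counts at day 5 (3.71, 3.01 and 4.68 CPM) and 8, 12 and 7 at day 7 (3.07, 4.17 and 3.43 CPM). Its days overlapped, with a log2 fold change of -0.11 ± 0.45 (95% confidence interval -1.05 to 0.83; adjusted p = 0.922 in edgeR). The coding sequences of Casp1 and Casp4 matched at 64.6% of aligned bases, and no 50-base word in the last 500 bases of either occurred in another gene.

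Since Casp1, Casp4 and Gsdmd are also genes of macrophages and other leukocytes, markers of those cells are given beside them. Of 17 leukocyte markers 11 were at 0 in every library, among them Csf1r, Adgre1, Tyrobp, Lyz2 and Cd3e. The summed level was 129 to 159 CPM at day 5 and 194 to 525 CPM at day 7 (exact permutation test, two-sided, p = 0.1, the smallest possible). Nearly all of it came from S100a8, S100a9, Cd68 and Cd14, the first pair of which epithelia also make. Of these, S100a8 (log2 fold change 2.16, adjusted p = 2.49e-05) and Cd68 (2.36, adjusted p = 0.0151) passed upward in edgeR. Cd68 had 7 counts at day 5 and 39 at day 7. S100a9 (0.82, adjusted p = 0.116) and Cd14 (-0.48, adjusted p = 0.471) did not pass in edgeR. Without these 4 genes the remaining 13 had 2 counts in all 6 libraries together. The sums over 10 endothelial markers were 12.2 to 14.1 CPM at day 5 and 13.9 to 27.4 CPM at day 7 (exact p = 0.2), with Cdh5 and Tek at 0. Those over 10 fibroblast markers were 10.3 to 16.6 and 24.5 to 26.0 CPM (exact p = 0.1), with Col1a2, Col3a1 and Lum at 0. Most of the fibroblast sum was Fbln1 alone, which did not pass (0.71, adjusted p = 0.101 in edgeR). It was at 9.90, 16.1 and 15.1 CPM, then at 22.6, 22.9 and 21.5 CPM. Most of the endothelial sum was Egfl7, which did not pass either (0.62, adjusted p = 0.246 in edgeR). The part of leukocytes, endothelial cells and fibroblasts in the values of the members was not tested.

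Casp8, the initiator caspase of death receptors and the brake on necroptosis, gave the most precise value. It lies on the plus strand (chr1:58834375-58886665). Its counts were 210, 141 and 208 at day 5 (86.6, 70.8 and 74.9 CPM) and 236, 209 and 159 at day 7 (90.5, 72.6 and 77.8 CPM). The order of the mice was the same on both days, with mouse 1 highest and mouse 2 lowest. Within a mouse the ratio of day 7 to day 5 was 1.05, 1.02 and 1.04. The mean was 77.5 ± 8.21 CPM at day 5 and 80.3 ± 9.23 CPM at day 7 (SD, n = 3). The log2 fold change was 0.051 ± 0.20 (adjusted p = 0.912 in edgeR), and its 95% confidence interval, -0.36 to 0.46, excludes a change of 0.6 in either direction. The sign of so small a value depended on the scaling: with library totals alone it was -0.043. Casp8 held 1163 of all counts of the 4 caspases, which were 641 at day 5 and 684 at day 7, so the caspase total was mostly a Casp8 total. In the last 500 bases of its transcript, 4.66% of the 50-base words also occurred in Gm70432. The 5 gasdermins together had 68 counts at day 5 and 221 at day 7, and 159 of the latter were Gsdmc.

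Casp14 (chr10:78547825-78554138, minus strand), the caspase of cornifying keratinocytes, was barely detected. Its counts were 0 in mouse 1, 0 in mouse 2 and 5 in mouse 3 at day 5, and 1, 1 and 2 at day 7. Only the day 5 library of mouse 3, at 1.80 CPM, lay above the 3-count floor. The log2 fold change was -0.31 ± 1.15 (95% confidence interval -2.72 to 2.09; adjusted p = 0.905 in edgeR), and its sign rested on that library, without which it was 3.49 (adjusted p = 0.327 in edgeR). No difference in Casp14 was detectable at this depth.

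**Figure D3:**
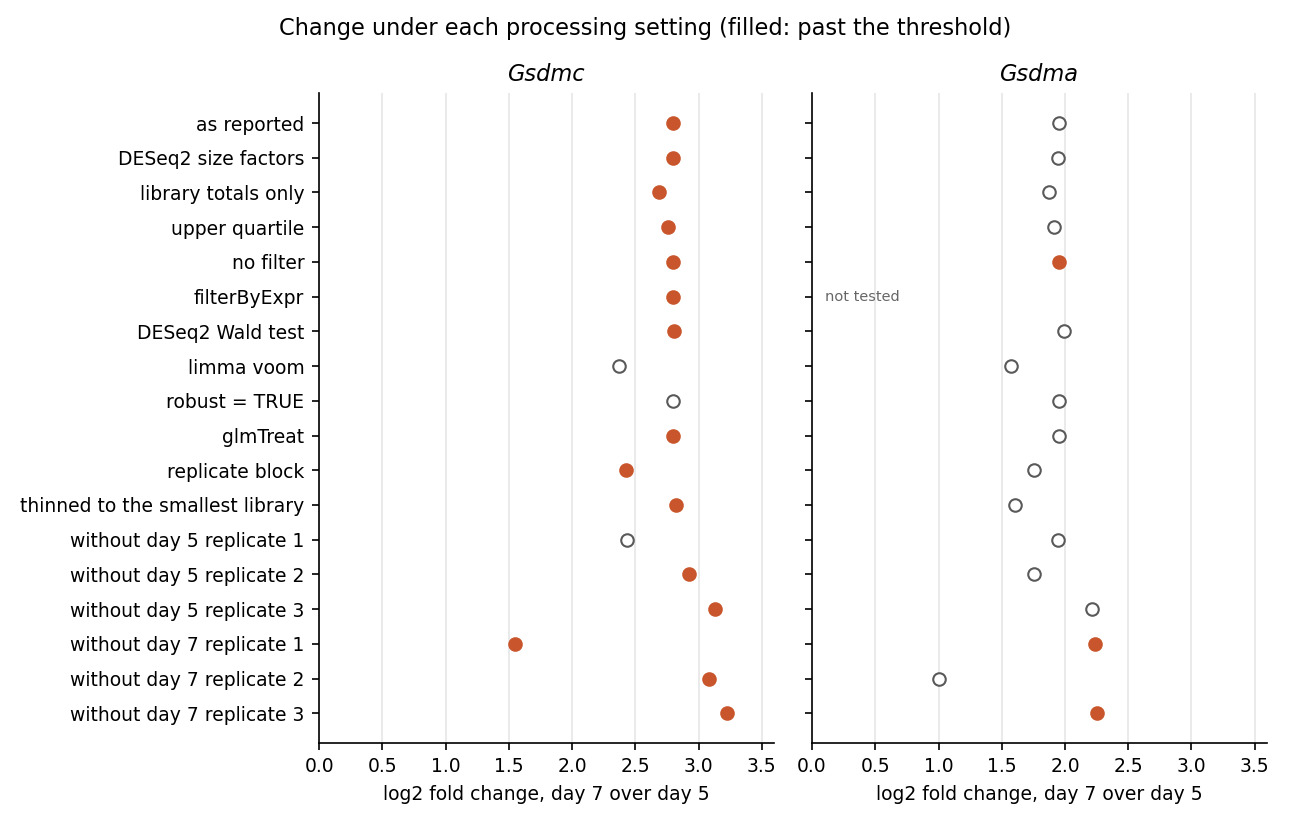
Log2 fold change of day 7 over day 5 (horizontal axes, from 0) of Gsdmc and Gsdma under the reported settings and each of 17 alternatives (rows, with the mouse number as the replicate number), filled where past the threshold. Gsdmc runs from 1.55, without the day 7 library of mouse 1, to 3.22, and is filled in the reported row and 14 others. Gsdma runs from 1.00 to 2.25, is filled in 3 rows, and was not tested with filterByExpr.

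Other caspase genes were read in the same fit. Casp6 encodes an effector caspase, Casp9 is switched on by the apoptosome, Casp2 responds to faulty division, and Casp12 lies next to Casp4. Of 7 genes in the list, which includes the caspase-8 partner Casp8ap2, 0 passed the test in edgeR, beside 12.0% over all genes. At an unadjusted p under 0.05 there were 2, and the median was -0.079. Casp6 was at 52.4, 58.7 and 54.8 CPM, then at 85.2, 83.0 and 67.6 CPM. Its days did not overlap, but at 0.51 (adjusted p = 0.106 in edgeR) it passed only without the day 7 library of mouse 3 (0.61, adjusted p = 0.0110 in edgeR). Casp12 was at 14.02, 6.03 and 13.3 CPM, then at 18.8, 22.9 and 18.1 CPM, again without overlap and without passing (0.82, adjusted p = 0.0966 in edgeR). In the paired fit, with a term for each mouse, Casp12 passed (0.86, adjusted p = 0.0381 in edgeR). Casp2 (-0.079) and Casp9 (-0.19) had overlapping days. The remaining gasdermin genes, Gsdma2, Gsdma3, Gsdmc3, Gsdmc4 and Pjvk, had 0 counts in every library.

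Upstream of Casp1, the adaptor rose while several sensors had no read. Pycard encodes ASC, which links sensors to caspase-1. It went from 34.6, 37.2 and 41.1 CPM to 84.8, 78.5 and 69.0 CPM. It was higher in all 3 mice without overlap (1.04 ± 0.21, adjusted p = 0.00251 in edgeR). Nlrp10, an NLR protein of skin keratinocytes, went from 2.48, 1.51 and 4.32 CPM to 23.0, 55.2 and 60.2 CPM. Its days did not overlap (3.97 ± 0.42, adjusted p = 6.70e-06 in edgeR), and it passed in all 17 alternatives. Of 18 sensors and adaptors listed, 8 were tested, 2 rose and 0 fell, 25% beside 12.0% over all genes. The median was 0.77. With genes at 0 on 1 day set to their bound, or to 0 where the other day had at most 3 counts, it was 0.33. Nlrp1b, Nlrp3 and 6 more genes of the list were at 0 in every library. Aim2, the DNA sensor, had 4 counts at day 5 and 6 at day 7.

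Downstream, among interleukin-1 family genes and Ninj1, 3 of 9 rose and 0 fell, 33.3% beside 12.0% over all genes (median 1.52, or 0.49 with bounds). Il33, an epithelial alarmin that caspases can inactivate, went from 193, 196 and 237 CPM to 827, 953 and 647 CPM (1.96 ± 0.20, adjusted p = 5.74e-06 in edgeR). Il36g went from 4.54, 9.54 and 3.24 CPM to 27.6, 19.4 and 16.2 CPM (1.92 ± 0.37, adjusted p = 0.00214 in edgeR). Both were higher at day 7 in all 3 mice with no overlap. Il36b had 0 counts at day 5 and 5, 4 and 1 at day 7, which is at least 3.18-fold higher against a floor of 3 counts over the day (adjusted p = 0.0467 in edgeR). It did not pass in the paired fit (adjusted p = 0.136 in edgeR) or when any 1 of 5 libraries was left out (adjusted p = 0.0826 to 0.135 in edgeR). The cytokines that caspase-1 matures, in contrast, gave almost nothing to test. Il1b had 1 count at day 5 and 1 at day 7, and Il18 had 17 and 20 counts (0.16, adjusted p = 0.888 in edgeR). Il1a was at 2.48, 2.51 and 1.80 CPM, then at 8.44, 9.37 and 0.979 CPM, and passed only with no filter (adjusted p = 0.0210 in edgeR) or without the day 7 library of mouse 3 (1.98, adjusted p = 0.00284 in edgeR), not as reported (1.52, adjusted p = 0.101 in edgeR). Ninj1, which tears the membrane after the pores form, did not pass either (0.49, adjusted p = 0.308 in edgeR).

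Interferon factors raise the level of Gsdmd, Casp1 and Casp4 in many cells, and guanylate-binding proteins help caspase-11 to reach bacterial lipopolysaccharide. Of 15 such genes tested, 1 rose, Irf9 (0.99 ± 0.24, adjusted p = 0.0101 in edgeR), from 28.05, 24.1 and 37.1 CPM to 52.5, 51.7 and 74.9 CPM. It did not pass without the day 5 library of mouse 1 (0.94, adjusted p = 0.0728) or of mouse 2 (0.87, adjusted p = 0.0998, both in edgeR). The median of the list was 0.64, and 6.67% of its tested genes passed, beside 12.0% over all genes. Irf2, a known activator of the Gsdmd gene, was at 77.5, 83.9 and 85.0 CPM and then 79.0, 79.2 and 64.6 CPM (-0.14, adjusted p = 0.696 in edgeR). Irf1 was at 34.6, 37.2 and 35.3 CPM at day 5 but spread to 45.3, 22.9 and 16.2 CPM at day 7 (-0.33, adjusted p = 0.516 in edgeR, and -0.85, adjusted p = 0.0311, without the day 7 library of mouse 1).

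Around Casp8, 0 of 17 tested genes of the death receptor platform and of necroptosis passed the test in edgeR, beside 12.0% over all genes. At an unadjusted p under 0.05 there were 3, and the median was -0.044. The adaptor Fadd had 9.07, 11.05 and 10.8 CPM at day 5 and 10.4, 10.1 and 14.2 CPM at day 7. Cflar, the caspase-8 homolog that keeps its activity in check and a neighbour of Casp8 at 36328 bases, was at 52.8, 48.7 and 49.4 CPM, then at 76.7, 75.7 and 67.1 CPM. Its days did not overlap, but it did not pass (0.54, adjusted p = 0.0829 in edgeR) and it passed in 0 of 17 alternatives. Ripk1 was higher at day 7 in all 3 mice (0.81, adjusted p = 0.0969 in edgeR). Ripk3 and Mlkl, the kinase and the pore former of necroptosis, each had a log2 fold change of -0.75, with overlapping days (adjusted p = 0.281 and 0.228 in edgeR). Without the day 7 library of mouse 1, Ripk1 (1.04, adjusted p = 0.0196) and Mlkl (-1.30, adjusted p = 0.0282) passed in edgeR. In the paired fit 1 gene of the list passed, the death receptor gene Tnfrsf10b (-0.93, adjusted p = 0.0115 in edgeR).

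In the mitochondrial arm, 3 of 22 tested genes rose and 0 fell, 13.6% beside 12.0% over all genes (median 0.027). Pmaip1, which encodes NOXA, went from 33.8, 30.1 and 36.4 CPM to 80.2, 90.3 and 49.4 CPM (1.13 ± 0.24, adjusted p = 0.00414 in edgeR, and 1.07, adjusted p = 0.0525, without the day 5 library of mouse 2). Bmf had 0 counts at day 5 and 7, 7 and 4 at day 7, at least 5.73-fold higher against the same floor (adjusted p = 0.00754 in edgeR). These are BH3-only promoters of apoptosis, whereas Bcl2l1, which rose from 58.2, 46.2 and 62.7 CPM to 69.0, 89.2 and 126 CPM (0.76 ± 0.23, adjusted p = 0.0398 in edgeR), encodes the survival protein BCL-XL. Bcl2l1 passed in 7 of 17 alternatives, and its call was lost when any 1 of 5 libraries was left out (log2 fold change 0.50 to 0.86, adjusted p = 0.0609 to 0.216 in edgeR). Bid, the caspase-8 substrate that joins the 2 routes, did not pass (-0.28, adjusted p = 0.507 in edgeR).

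The listed inhibitors moved in both directions, with 3 of 11 tested higher and 2 lower at day 7 (median 0.48). That was 45.5% of those tested, beside 12.0% over all genes. Spink5, which encodes the kallikrein inhibitor LEKTI rather than a caspase inhibitor, went from 127, 157 and 143 CPM to 561, 635 and 359 CPM (1.87 ± 0.22, adjusted p = 2.01e-05 in edgeR). Serpinb1a, an inhibitor of neutrophil proteases that has also been tied to inflammatory caspases, went from 10.7, 23.1 and 14.1 CPM to 81.3, 60.4 and 25.9 CPM (1.83 ± 0.35, adjusted p = 0.00210 in edgeR). Serpinb9, the granzyme B inhibitor, rose by 0.99 on the log2 scale (adjusted p = 0.0214 in edgeR). Birc5, which encodes survivin and also serves in mitosis, fell from 322, 384 and 334 CPM to 173, 112 and 212 CPM (-1.06 ± 0.22, adjusted p = 0.00361 in edgeR). Birc6, a ubiquitin ligase, fell by 0.79 on the log2 scale (adjusted p = 0.0180 in edgeR). The calls of Serpinb9 and Birc6 were lost when any 1 of 4 libraries was left out. These were the 3 of day 5 and that of mouse 2 at day 7. The adjusted p was then 0.0677 to 0.122 for Serpinb9 and 0.0575 to 0.116 for Birc6 in edgeR. Xiap, which blocks caspases directly, did not pass (0.36, adjusted p = 0.258 in edgeR).

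Casp14 itself was near the floor, but 7 of 12 tested genes around caspase-14 and filaggrin processing rose and 0 fell (median 1.31, or 1.02 with bounds). That was 58.3% of those tested, beside 12.0% over all genes. This list, like the others, was chosen with earlier results of these data known, so its share is a description only. Krt10, the suprabasal keratin, went from 93.2, 116 and 98.4 CPM to 572, 494 and 236 CPM (2.08 ± 0.26, adjusted p = 4.26e-05 in edgeR). Klk7, a desquamation protease, had 1 count at day 5 and 86 at day 7 (adjusted p = 0.000131 in edgeR). Flg, the filaggrin gene, had 1 count at day 5 and 5, 8 and 3 at day 7 (adjusted p = 0.0335 in edgeR), with a pooled ratio of 15.3 whose 95% counting interval ran from 2.37 to 641. Flg did not pass in the paired fit (adjusted p = 0.0733 in edgeR), with the Wald test of DESeq2 (adjusted p = 0.0966) or without the day 5 library of mouse 1 or 3 or the day 7 library of mouse 2 (adjusted p = 0.127 to 0.150 in edgeR). Blmh, the hydrolase that finishes filaggrin breakdown, went from 205, 241 and 202 CPM to 433, 453 and 495 CPM (1.09 ± 0.18, adjusted p = 0.000649 in edgeR). The other genes of the list that rose were Hspb1 (1.52), Loricrin (3.33) and Tchh (0.94, not passing when any 1 of the day 5 libraries or that of mouse 2 at day 7 was left out, adjusted p = 0.0703 to 0.153 in edgeR). Over all 125 pathway genes listed, 100 were tested, 19 rose and 2 fell, 21% of those tested beside 12.0% over all genes. Of these, 11 passed in every alternative that gave a value.

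**Figure D4:**
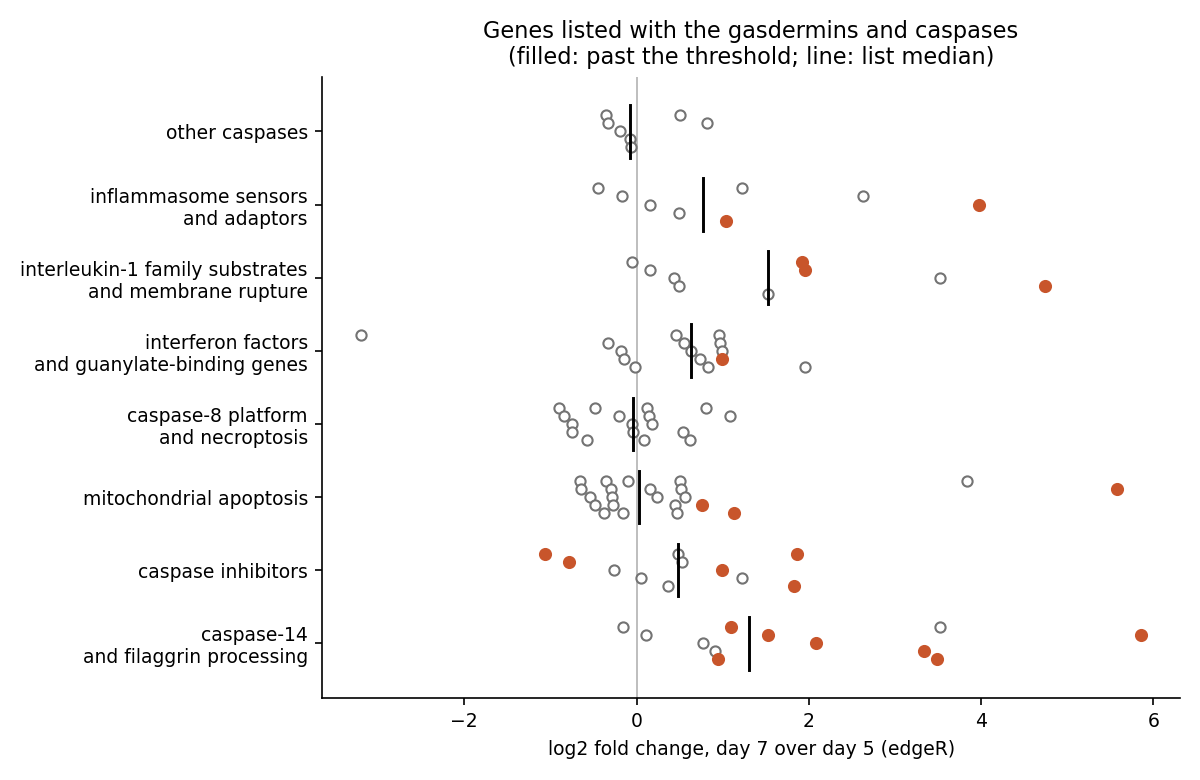
Fitted log2 fold change of day 7 over day 5 (horizontal axis) of each tested gene in 8 lists grouped around gasdermins and caspases (rows). Not every listed gene acts with either family, Spink5 among them. Vertical scatter has no meaning, points are filled where past the threshold, and a black line marks the list median. The caspase-14 and filaggrin row holds 7 filled points, all above 0, the other caspases and the caspase-8 rows hold 0, and values of genes with no count at day 5, such as Bmf, depend on the prior count of the fit.

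The genes nearest to the members were also read. Within 100000 bases of a member lay 29 protein-coding genes that are no members, of which 20 were tested and 2 passed, both higher and both near Gsdma, where 12.0% of all genes tested passed. Ormdl3, a regulator of sphingolipid synthesis 76983 bases away, went from 9.49, 12.6 and 16.6 CPM to 26.1, 46.5 and 54.8 CPM (1.70 ± 0.30, adjusted p = 0.00113 in edgeR). Thra, a thyroid hormone receptor gene 60575 bases away, went from 49.5, 48.2 and 47.9 CPM to 69.8, 69.4 and 95.5 CPM (0.68 ± 0.21, adjusted p = 0.0380 in edgeR). Psmd3, the nearest tested neighbour of Gsdma at 4828 bases, did not pass (-0.049, adjusted p = 0.928 in edgeR). Across the 6 libraries the genes whose log2 CPM followed Gsdmc most closely, of 8006 with a mean of at least 10 CPM, were Tpi1, a glycolytic enzyme (Pearson r = 0.995), and Rnf13, a ubiquitin ligase (r = 0.990). These are descriptions over 6 points that share 3 mice and 2 days, and neither gene passed the test itself (0.51, adjusted p = 0.107, and 0.40, adjusted p = 0.242 in edgeR). Tpi1 had its highest value, 241 CPM, in the day 7 library of mouse 1, as Gsdmc did.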

How the data were processed

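RNA of 3 mice at day 5 and day 7 was read by 3′ mRNA sequencing (6 libraries). The authors deposited raw counts per Ensembl gene for each library. Per the labels GRCm39 was the genome and edgeR was used, whereas the aligner, counter, annotation release and strand setting are not given in the sources used here. Neither library sizes nor tests used the rows that name no gene. Of 47643 identifiers 91.2% matched GENCODE vM39.

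The tool, the filter on low counts and the thresholds of 0.05 and 0.6 (log2) were taken from the study's methods. Genes counted in 2 or more libraries (at least 1 count each) were tested by quasi-likelihood with TMM scaling, both chosen here (edgeR 4.0.16 in R 4.3.3, glmQLFit and glmQLFTest, two-sided), and adjusted over all 15792 genes. DESeq2 1.42.0 and limma 3.58.1 served as alternatives. CPM are counts over TMM-scaled library sizes. Sums per library were compared by exact permutation tests, which took the libraries as independent and did not use the pairing by mouse. The code was tested on simulated data. Libraries of a day differed by more than sampling noise (chi-square per degree of freedom at least 2.09).

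Libraries with the same number came from the same mouse by the labels, so the numbers pair them. The deviations from the day means correlated at 0.14, -0.10 and 0.16 over 8172 genes. The reported fit has no term for the mouse, since the study's methods name none.

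The members and all gene lists were chosen with earlier results of these data known. Named were all members, a fixed set of partners, up to 3 genes per list past the threshold with the smallest p, neighbours within 100000 bases past the threshold and the 2 genes most like a changed member. Other genes of a list past the threshold, Tnfrsf10b, Psmd3 and the named genes of the marker lists were chosen after their values were seen. Some genes of these lists are not reported here by name.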

Additional observations from a re-analysis of the deposited data

How the results depend on the processing

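Under 17 alternatives, the calls of Gsdmc and Gsdma and all 3 counts of genes past the threshold depended on the processing. With 1 member as reported, the count was 2 with no filter on low counts, where Gsdma joined Gsdmc, 0 with limma voom and 0 with robust = TRUE, and 0 to 2 when a library was left out. Over all genes the count was 1901 as reported, 622 with glmTreat and 797 to 2576 when a library was left out. Over the pathway genes it was 21 as reported, 11 with glmTreat and 14 to 26 when a library was left out. Leaving out a library moved the log2 fold change of Gsdmc between 1.55 and 3.22, of Gsdma between 1.00 and 2.25 and of Gsdmd between -0.86 and -0.23.

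The sign of members near 0 was not stable. When a library was left out, Gsdme ran from -0.28 to 0.35 (-0.011 without the day 5 library of mouse 2), Casp1 from -0.82 to 0.19 (0.13 without day 5 mouse 2, 0.067 without day 7 mouse 3), Casp4 from -0.25 to 0.077, Casp8 from -0.045 to 0.14 (-0.0070 without day 5 mouse 2) and Casp14 from -0.86 to 3.49. Casp8 was -0.043 with library totals only. Casp14 was 0.54 with limma voom, 0.46 with counts thinned to the smallest library and 0.11 with the replicate block. The causes were not tested.

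With the mouse as a replicate block Gsdmc was 2.42 and still passed, and 1 member and 21 pathway genes were past the threshold. The block changed the call of no member, and of the partner genes named it changed those given above for Casp12, Il36b, Flg and Tnfrsf10b. filterByExpr removed Gsdma, Gsdmd, Gsdme, Casp4 and Casp14, which have no value there. With 9 to 98 counts in all, Casp14, Gsdma, Gsdme, Gsdmd, Casp4 and Casp1 are limited by depth.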
